A study of Oryza sativa with 6 samples.

Results

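The genes described here are those whose root signal was higher without nitrogen in both rice varieties when each array is taken by its label. They were selected on the measured log2 signals themselves. A probe set was kept when it had 1 locus, when the array without nitrogen read at least 1 log2 above both arrays with nitrogen of the same variety, in Prasanna and in Varadan alike, and when both arrays without nitrogen read at least 8. Of 34860 probe sets with 1 locus, 99 met these limits (0.284%), or 0.67% of the 14785 that reached 8 on both arrays without nitrogen. Nitrate and amino acid transporters, phenylalanine ammonia-lyases, dehydrins, PP2C phosphatases, Hox22, OPR enzymes and aquaporins were set aside, which took out OsOPR4, OsHox22, OsPIP2;7, OsPP2C09, RAB16B and RAB16D. The remaining 93 probe sets stand for 89 genes of the 25727 with a probe set of their own. The sources used here describe no gene product, so members of those families that lack a synonym in the reference table could not be recognised.

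Roots of hydroponic Oryza sativa seedlings, 14 days old by the label, were taken after the plants had been moved from Yoshida nutrient solution with nitrogen to the same solution with or without it. Before the move they had germinated for 7 days and grown for 10 days with nitrogen, which all groups share and which adds up to more than the stated age. Each variety gave 1 array without nitrogen and 2 arrays with supplemented nitrogen, so 6 arrays in all. A second array without nitrogen of each variety, named in the design text, was not analysed here. The dose and the time after the move are not given in the labels, and nothing there says that replicates came from separate cultures. The p-values can therefore speak only of the variation among these arrays, part or all of which may be technical. In such whole-root RNA, a change in the share of a cell type and a change in RNA per cell cannot be told apart.

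Plants short of nitrogen raise transporters that scavenge it, break down protein and chlorophyll in older tissue to reuse the nitrogen held there, and share part of this programme with stress and senescence. Jasmonate, a lipid-derived hormone, is made from plastid fatty acids through allene oxide synthase and releases its target genes by the destruction of JAZ repressor proteins, whose own genes are among those targets. Cold and drought act in part through transcription factors of the NAC and DREB families.

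Only 11 of the 89 genes have a name in the reference gene table (OsTIFY11c, AOS2, ILL6, OsNAC5, OsDREB1B.1, OsSAP1, CML16, SGR, CYP76M5, Pi21 and OsSTLP3). The other 78 are called by their locus, and no role is given for them.

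The labels of the arrays are themselves in doubt, and the rule leans on them. The deposited tables exchange the columns of the Varadan array without nitrogen and of Varadan with nitrogen, replicate 1. The members follow the log2 table. NRT2.3, a nitrate transporter that rises when nitrogen is short, read 12.49 on the Varadan array without nitrogen, 12.29 on replicate 1 with nitrogen and 7.78 on replicate 2. For AMT1.2, which carries ammonium, the values in that order were 10.83, 10.78 and 4.41. NiR, the third nitrogen gene looked up, read 11.26, 10.73 and 14.31 in that order. In Prasanna it read 9.98 without nitrogen, and 13.41 and 13.93 with it. On these genes replicate 1 lay with the array without nitrogen, whereas the members were required to lie at least 1 log2 below it there. In the series matrix, 0 of the 93 probe sets met the Varadan limit, as the exchange of columns dictates. That table yields 45 other probe sets. All results below hold only for the labels of the log2 table.

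**Figure D1:**
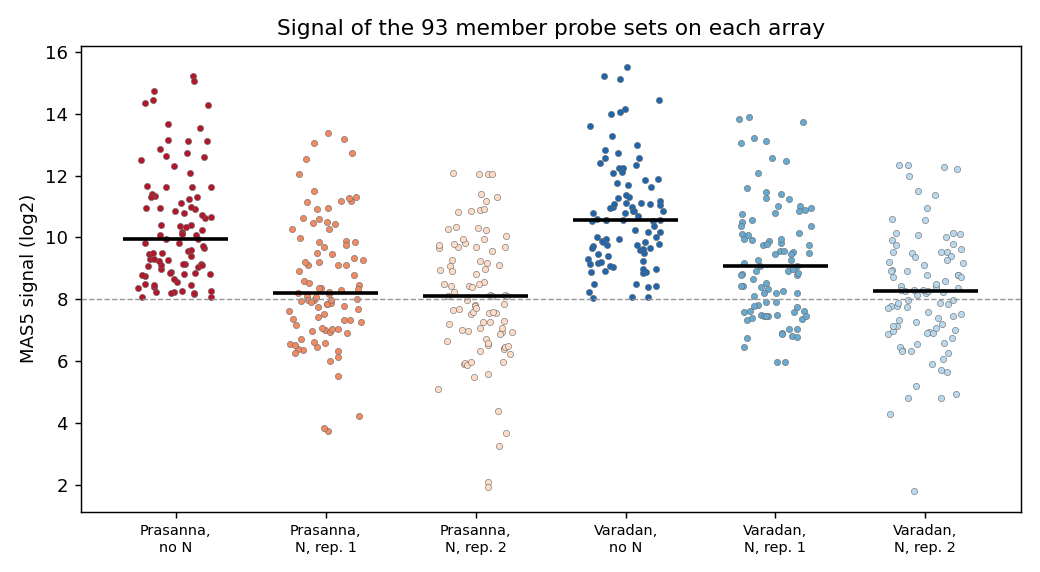
Log2 MAS5 signal (vertical axis) of the 93 member probe sets on each of the 6 arrays (horizontal axis); 1 point is 1 probe set, the bar is the median and the dashed line marks the limit of 8. The medians without nitrogen are 9.95 and 10.56, and those with nitrogen lie between 8.11 and 9.07.

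The members' median lay above that of all tested probe sets on each of the 6 arrays, by most without nitrogen. Their median signal without nitrogen was 9.95 log2 in Prasanna and 10.56 in Varadan, against 7.97 and 7.93 for all tested probe sets. With nitrogen the members' median was 8.21 and 8.11 on the Prasanna replicates 1 and 2. It was 9.07 and 8.25 on those of Varadan. Medians of all tested probe sets lay between 7.98 and 8.03 on these 4 arrays. Relative to the mean of the replicates with nitrogen, signal without it was a median of 3.41-fold higher in Prasanna (2.02-fold or more in each) and 3.61-fold higher in Varadan (2.11-fold or more). At the upper end dim readings allow only bounds, given below for Os12g0555100. These sizes were fixed in part by the rule and are a description. By limma, 0 of 34316 probe sets passed as higher without nitrogen over both varieties (0%; 7420 probe sets in either direction had an unadjusted p under 0.05). In Prasanna alone 0% and in Varadan alone 0% passed (3984 and 4381 at an unadjusted p under 0.05), so no member is called by a test of the nitrogen response.

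Most members lay close to the limit. The smaller of the 2 margins, array without nitrogen minus the higher array with it, was under 1.5 in 79 of 93 probe sets and at least 2 in 4. Just inside were Os05g0552800 (1.0001 in Varadan), Os09g0127300 (1.0016) and Os03g0188000 (1.0035). Just outside were Os10g0413400 (0.9968), Os08g0200100 (0.9955) and Os01g0369900 (0.9950). The correlation of members' levels without nitrogen between the varieties was r = 0.905 over 93 probe sets, which share the array design and the probes.

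Jasmonate synthesis and signalling were represented by AOS2 and OsTIFY11c, and hormone conjugates by ILL6. AOS2 (Os03g0225900), an allene oxide synthase on the way to jasmonate, had a Prasanna signal of 9.55 without nitrogen, 8.36 on replicate 1 and 7.53 on replicate 2. The Varadan values, in the same order as all triplets that follow, were 9.30, 7.63 and 7.14. Every array with nitrogen lay below both arrays without it, and the signal without nitrogen was 3.04-fold and 3.76-fold that of the mean with nitrogen. The rule sets such a gap within each variety and so favours it across both, where it held for 87 of the 93 members. Its share over all probe sets was not counted, so a lack of overlap is a description only. OsTIFY11c (Os03g0180900), a JAZ repressor that keeps jasmonate responses off until the hormone arrives, gave 10.80, 9.76 and 9.28 for Prasanna and 11.07, 9.81 and 9.12 for Varadan. Here too the groups did not overlap, with 2.43-fold and 3.04-fold higher signal. ILL6 (Os06g0691400), named for hydrolases that in Arabidopsis free hormones from their amino acid conjugates, gave 9.06, 7.62 and 7.08 in Prasanna. Its Varadan readings were 8.48, 7.45 and 6.99, and the groups were again apart (3.26-fold and 2.40-fold).

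Relatives of these genes were looked up by name after the members were known, so their counts are a description. Of 14 other JAZ and TIFY genes tested, 7 read higher without nitrogen than on both arrays with it in both varieties, where 20.2% of all tested probe sets did, and their median margin was -0.01 in Prasanna and 0.41 in Varadan. JAZ12 (Os10g0392400) came close, at 12.15, 11.24 and 10.35 in Prasanna and 12.28, 10.10 and 9.86 in Varadan. JAZ13 (Os10g0391400) read 8.16, 7.22 and 5.40, then 8.89, 6.89 and 5.54. Both fell short of the limit in Prasanna alone, with margins of 0.92 and 0.94. JAZ3, OsTIFY1a and OsTIFY2a lay below 0 in both varieties (margins of -0.26 to -0.49). Among 14 other genes of jasmonate synthesis (AOS, AOC, OPR and LOX names) 7 were above both arrays in both varieties, OsOPR4 (set aside by the rule) among them, and the median margin was 0.31 in Prasanna and 0.24 in Varadan. AOC3, the allene oxide cyclase, stayed between 12.91 and 13.16 on all 6 arrays. LOX3 and LOX5 lay below 0 in both varieties (margins of -0.43 to -0.68), and OPR7 had a margin of -1.20 in Varadan. Of 5 other ILL genes tested, 1 was above both arrays in both varieties, near the share of all tested probe sets. Their median margin was -0.15 in Prasanna and -0.28 in Varadan.

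**Figure D2:**
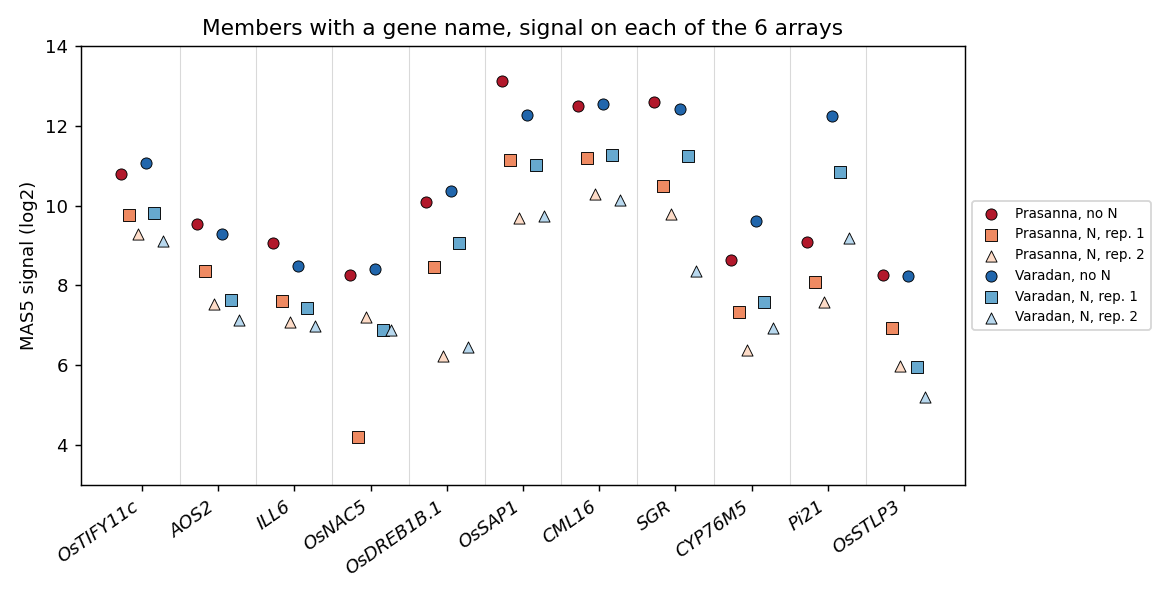
Log2 MAS5 signal (vertical axis) of the 11 members with a gene name (horizontal axis) on each array; red symbols are Prasanna, blue symbols Varadan, circles the arrays without nitrogen, squares and triangles replicates 1 and 2 with nitrogen. The circles lie above the squares and triangles of their colour for every gene, as the rule demands, and for Pi21 the lowest Varadan symbol (9.19) lies just above the highest of Prasanna (9.10).

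Transcription factors with a name were OsDREB1B.1 and OsNAC5. OsDREB1B.1 (Os09g0522000), of the AP2/ERF factors that bind the drought- and cold-responsive element, had Prasanna values of 10.09, 8.45 and 6.24. Those of Varadan were 10.36, 9.07 and 6.45. Its 2 arrays with nitrogen differed by over 2 log2 within each variety (2.21 and 2.62), more than the margin that made it a member. Of 8 other DREB genes, 5 lay above both arrays with nitrogen in both varieties, against 20.2% of all tested probe sets, with median margins of 1.03 in Prasanna and 0.83 in Varadan. DREB1G (Os02g0677300) gave 7.93, 5.88 and 5.20 for Prasanna and 8.64, 3.28 and 5.06 for Varadan, and missed the limit of 8. DREB1J, one of the 5, was dim, at 4.85 without nitrogen in Prasanna. DREB2B, DREB1E and DREB2D were not above both arrays in both varieties, and DREB2B had margins of -0.36 and -0.30.

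OsNAC5 (Os11g0184900), a NAC factor linked in rice to stress and to senescence, was a member through a dim probe set only. That one gave 8.26, 4.22 and 7.22 for Prasanna and 8.40, 6.89 and 6.88 for Varadan, where 4.22 is under the 40th percentile of its array. The difference in Prasanna is thus at least 4.34-fold. The member probe set has the suffix for sequence that can match other genes. A dim sister probe set missed the margin in Varadan (0.97) and the level of 8 on both arrays without nitrogen (6.18 and 7.66). A far brighter probe set of the same gene gave 13.77, 13.04 and 13.50 for Prasanna and 13.97, 12.86 and 13.70 for Varadan, with margins of 0.27 and 0.26. The direction was shared, but the brighter probe set was far from the limit. Of 8 other NAC genes, 2 were above both arrays in both varieties, where 20.2% of all tested probe sets were.

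Stress signalling was represented by OsSAP1 and CML16. OsSAP1 (Os09g0486500), an A20/AN1 zinc-finger protein whose overexpression raises stress tolerance, gave 13.12, 11.14 and 9.69 for Prasanna and 12.26, 11.01 and 9.74 for Varadan. It was thus 6.51-fold and 3.68-fold higher without nitrogen, with no overlap between supplies, which the rule favours. CML16 (Os01g0135700), a calmodulin-like calcium sensor, stood at 12.51, 11.19 and 10.28, then at 12.56, 11.27 and 10.14. Its levels in the varieties were nearly equal array by array. Among 10 other SAP genes 6 lay above both arrays in both varieties, OsSAP17 (margins 0.90 and 0.79) and OsSAP11 (0.54 and 0.99) among them. The median margin of the 10 was 0.41 in Prasanna and 0.20 in Varadan, and OsSAP15 and OsSAP16 lay below 0 in both. Of 20 other CML genes, 10 lay above both arrays in both varieties, with median margins of 0.81 and 0.26. CML9, CML13 and CML24 lay below 0 in both. The share of all tested probe sets was again 20.2%.

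SGR (Os09g0532000), the stay-green protein that starts chlorophyll breakdown by taking out its magnesium, gave 12.60, 10.49 and 9.78 for Prasanna and 12.41, 11.25 and 8.37 for Varadan. A second probe set of SGR read 11.91, 9.74 and 9.08, then 11.55, 10.66 and 8.13, and missed the limit in Varadan with a margin of 0.89. Both probe sets gave the same order of arrays. The mean of 9 green tissue markers was 11.63, 11.38 and 10.65 for Prasanna and 13.40, 12.60 and 11.42 for Varadan. In Varadan each of these markers was highest without nitrogen. In Prasanna RBCS4 (11.11, 11.93 and 10.88) and PsbO (10.98, 11.41 and 10.97) were highest on replicate 1. CAB2R was highest on replicate 2 there (13.71, 13.42 and 13.74), and the other markers without nitrogen. Their part in the SGR result was not tested.

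Defence and specialised metabolism had Pi21 and CYP76M5. Pi21 (Os04g0401000), a proline-rich protein whose loss makes rice more resistant to blast, gave 9.10, 8.08 and 7.60 for Prasanna and 12.25, 10.84 and 9.19 for Varadan. The lowest Varadan reading, with nitrogen, was above the highest of Prasanna, without it. Its other probe sets read 7.61, 7.54 and 6.86 against 8.99, 7.68 and 7.54, and 9.52, 9.10 and 8.32 against 11.75, 10.72 and 9.65. Both met the limit in Varadan (1.31 and 1.03) and not in Prasanna (0.07 and 0.42). CYP76M5 (Os02g0569000), a cytochrome P450 of the diterpenoid gene cluster on chromosome 2, stood at 8.64, 7.34 and 6.39 and at 9.60, 7.59 and 6.92. Its neighbours in name, CYP76M8 and CYP76M6, were not above both arrays in Prasanna (margins of -0.08 and -0.62), while in Varadan they were (1.07 and 0.45). OsSTLP3 (Os04g0506800), a sialyltransferase-like protein, gave 8.26, 6.95 and 5.98 for Prasanna and 8.24, 5.97 and 5.20 for Varadan, the lowest level with nitrogen among the named members in Varadan.

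Several unnamed loci stood out from the rest and were picked after their values were seen. Os12g0555100 had the largest contrast of Prasanna, with 14.27 without nitrogen against 3.82 and 5.86 with it. The reading of 3.82 lies under the 40th percentile of its array, so the difference in this probe set is at least 448.0-fold. In Varadan it read 15.13, 13.89 and 7.38, and replicate 1 with nitrogen lay far closer to the array without it than to replicate 2. A second probe set of the gene, with no dim reading, gave a smaller difference. It read 15.07, 7.63 and 7.25, then 15.45, 14.60 and 9.59, which is 197.9-fold in Prasanna and 10.2-fold in Varadan, and it missed the limit in Varadan (margin 0.85).

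The brightest member was Os01g0246400, and 3 probe sets of it qualified. The brightest of them gave 15.22, 13.39 and 12.06 for Prasanna and 15.51, 13.82 and 12.35 for Varadan. Another read 15.07, 13.20 and 11.32, then 15.21, 13.73 and 11.998. The dimmest read 8.24, 6.12 and 5.90, then 9.14, 6.75 and 5.89. In each variety all of them were highest without nitrogen and lowest on replicate 2, at 4.68-fold to 7.001-fold in Prasanna and 5.11-fold to 7.04-fold in Varadan.

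Probe sets with a margin of at least 2 in both varieties belonged to Os10g0393800, Os03g0322200, Os08g0298800 and Os01g0246400. Os10g0393800 gave 8.51, 5.52 and 5.11 for Prasanna and 10.00, 7.61 and 4.79 for Varadan. Os03g0322200 read 9.95, 7.86 and 7.55, then 10.68, 8.09 and 7.78, with replicates of each variety close together. Os08g0298800 read 10.17, 6.005 and 8.13, then 10.97, 6.81 and 7.98, and there replicate 2 was the higher one in both varieties. Os05g0292700 had the widest margin of Varadan, at 10.17, 6.46 and 6.36 against 8.23, 6.40 and 6.42 in Prasanna. On the 4 arrays with nitrogen it lay between 6.36 and 6.46. A second probe set of that gene, at 11.49, 12.43 and 11.56 in Prasanna, went the other way there (margin of -0.94).

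Of the 93 probe sets, 10 had at least 1 reading with nitrogen below the 40th percentile of its array (4.89 to 5.42 log2), and none had one without nitrogen. Such readings are not taken as above background. Probes of 11 members carry the suffix for sequence that can match other genes and another 11 that for transcripts shared with others, so their signal may not be of the named locus alone. The 89 genes had 37 further probe sets on the array, of which 33 were tested. Of these 29 read higher without nitrogen than on both arrays with it in both varieties, where 20.2% of all tested probe sets did. The other 4 did not. The median smaller margin of all 33 was 0.50. Both margins reached 1 in 3 of the 37 further probe sets. Those probe sets were read on the same RNA and arrays.

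**Figure D3:**
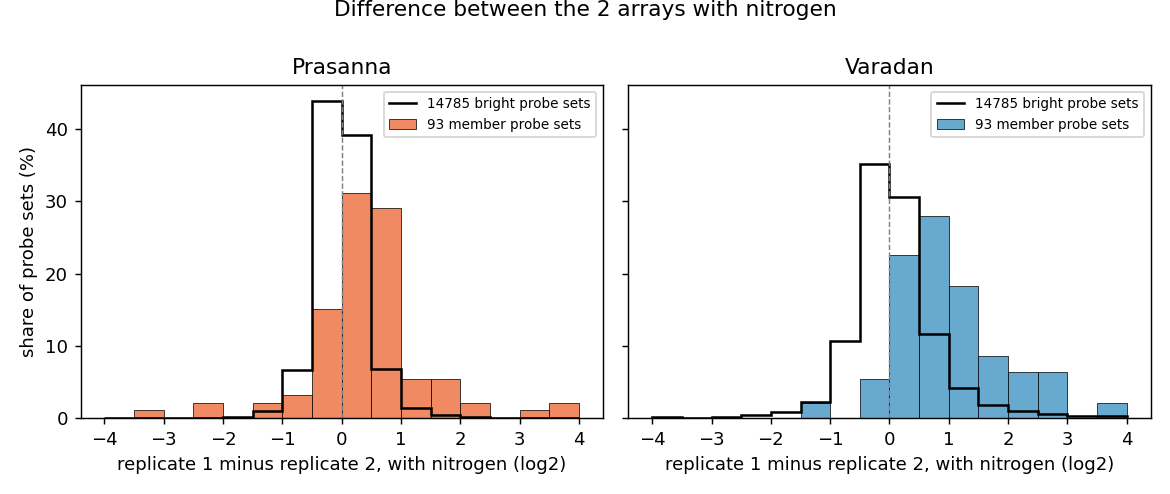
Share of probe sets in percent (vertical axis) by the difference between replicates 1 and 2 with nitrogen in log2 (horizontal axis, bins of 0.5, values beyond 4 in the end bins), in Prasanna (left) and Varadan (right). Filled bars are the 93 members and the black outline the 14785 probe sets with 1 locus and a level of at least 8 on both arrays without nitrogen; the members' medians are 0.41 and 0.82, and 22 members in Prasanna and 7 in Varadan lie below 0.

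The arrays with nitrogen did not agree on the members. The rule caps both replicates alike and does not set which is higher. Replicate 1 read above replicate 2 for 71 of 93 probe sets in Prasanna and for 86 in Varadan. Among probe sets with 1 locus as bright without nitrogen, 48.1% and 50.3% did. Replicate 1 was at least 1 log2 higher for 15 members in Prasanna (16.1%) and 39 in Varadan (41.9%), against 2.05% and 8.12% of these bright probe sets. Replicate 2 was at least 1 log2 higher for 5 members in Prasanna (5.38%) and 2 in Varadan (2.15%), against 1.27% and 3.81%. The rule used these arrays and picks probe sets that vary between arrays, so the shares are a description and the bright probe sets are no measure of the gap to be expected. The median difference was 0.41 log2 in Prasanna and 0.82 in Varadan, against -0.02 and 0.00. Replicate numbers here name arrays and link nothing between the varieties.

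Relative to the array without nitrogen, the median member was 1.60 log2 lower on replicate 1 and 2.04 lower on replicate 2 in Prasanna. In Varadan these drops were 1.26 and 2.19. Replicate 1 of Varadan lay at a median of 39.5% of the way from replicate 2 to the array without nitrogen (middle 50% of members 24.9% to 53.7%). NRT2.3 lay at 95.6% and AMT1.2 at 99.1% of that way on the same array. The rule keeps members at least 1 log2 below the array without nitrogen, so this contrast was set in part by the selection. For SGR, OsDREB1B.1, OsSAP1 and CML16 replicate 1 lay between the other two arrays in each variety. For Os08g0298800 replicate 2 did.

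**Figure D4:**
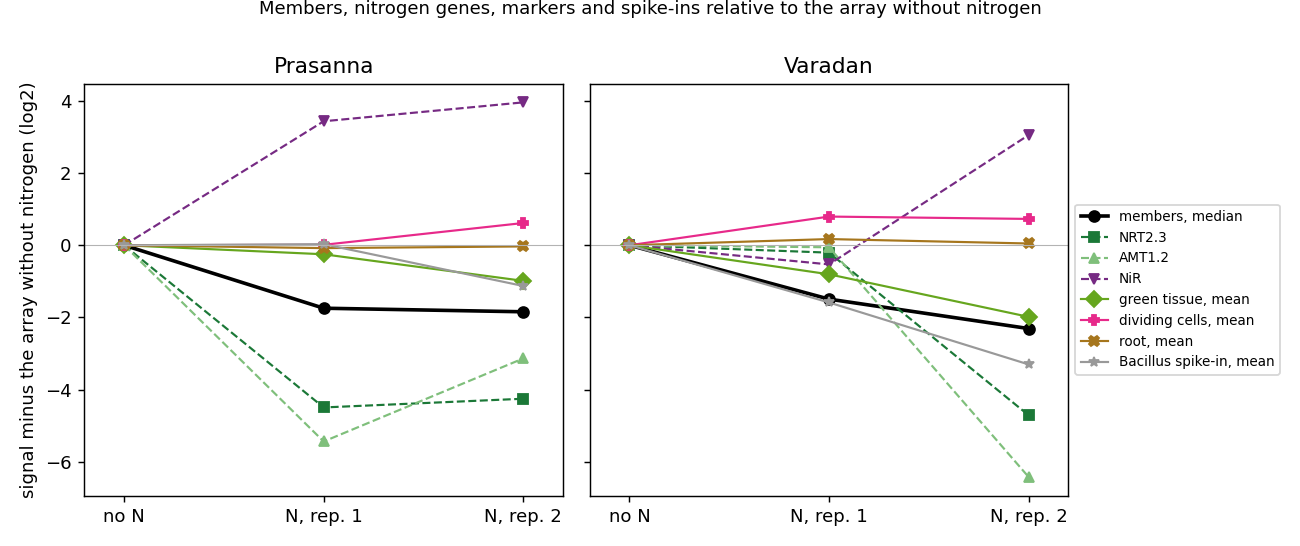
Signal minus the array without nitrogen in log2 (vertical axis) on the arrays of Prasanna (left) and Varadan (right), for the median of the 93 members, the nitrogen genes NRT2.3, AMT1.2 and NiR, the means of the markers of green tissue (9 genes), dividing cells (5) and root (5), and the mean of 24 Bacillus spike-in probe sets; lines only join the points of 1 item. In Varadan the members fall on both arrays with nitrogen, as the rule demands, while NRT2.3 and AMT1.2, which did not meet it, fall almost wholly on replicate 2.

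Some other quantities moved across the arrays as well. The Bacillus spike-ins, foreign RNA added before labelling, gave 11.03, 11.06 and 9.90 for Prasanna and 11.16, 9.58 and 7.86 for Varadan. The green tissue markers, given above for SGR, were measured for 9 of 10 genes and lay above the 40th percentile on all arrays. The 5 markers of dividing cells averaged 9.62, 9.63 and 10.24 in Prasanna and 9.51, 10.31 and 10.24 in Varadan. Root markers (RCc3, Lsi1, Lsi2, PHO1.2 and PIN2) averaged 13.38 to 13.55 on the 6 arrays, but single root markers moved apart. Lsi2 was highest without nitrogen in both varieties (14.61, 13.59 and 13.57, then 14.825, 14.27 and 13.68). PIN2 was lowest without it in both (9.65, 10.10 and 10.68, then 8.60, 9.52 and 10.22), as was PHO1.2. RCc3 and Lsi1 did neither in Prasanna. On the Varadan array without nitrogen the green tissue markers averaged as much as the root markers (13.40 and 13.38), with CAB2R at 15.35 and RBCS2 at 14.50. The 3' probe set of GAPDH minus the 5' one gave 3.06, 3.52 and 3.11 for Prasanna and 4.77, 4.38 and 4.41 for Varadan. That difference was thus larger on every Varadan array than on any of Prasanna. The part of spike-in amount, green tissue or the GAPDH difference in the members' values, also between the varieties, was not tested.

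The rule did not use the contrast between varieties. With supplemented nitrogen, 0 of the 93 members passed limma's test of Varadan against Prasanna at an adjusted p of 0.05 (smallest 0.112), with 12 at an unadjusted p under 0.05, 11 of them higher in Varadan. That is 12.9% of the members, against 8.48% of all tested probe sets (1432 higher and 1479 lower). Over all tested probe sets 0.37% passed as higher in Varadan and 0.338% as lower. The members' median difference was 0.23 log2, against -0.01 for all tested probe sets, with 60 members higher and 33 lower in Varadan. The sign of that median rested on single arrays. It was 0.69 without replicate 2 of Varadan, where 5 members passed, -0.16 without replicate 1 of Varadan, -0.02 without replicate 2 of Prasanna and 0.43 without replicate 1, with 0 members passing in each of the last 3. In the series matrix it was 0.98.

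Over both supplies (3 arrays against 3, nitrogen supply in the model) 3 members passed as higher in Varadan and 0 as lower, with 0.95% and 0.801% of all tested probe sets passing. Os05g0469800 gave 8.82, 6.46 and 5.49 for Prasanna and 10.54, 9.09 and 8.41 for Varadan. It was 2.42 ± 0.39 log2 higher in Varadan (limma, adjusted p = 0.0335), though its lowest Varadan reading lay below the highest of Prasanna. Os06g0115300 read 8.80, 7.37 and 6.94, then 10.79, 9.76 and 8.92, and was 2.12 ± 0.29 higher (limma, adjusted p = 0.017). All its Varadan readings lay above all those of Prasanna. Its probe set has the suffix for sequence that can match other genes, and another probe set of the gene passed too (1.79 ± 0.31, limma, adjusted p = 0.0445). Os05g0181300 read 9.28, 7.42 and 6.52, then 11.10, 9.50 and 8.96, and was 2.12 ± 0.31 higher (limma, adjusted p = 0.0238). Within each supply its Varadan readings lay above those of Prasanna.

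These 3 calls were lost in most cases where 1 array was left out. None of the 3 passed without either array of Prasanna with nitrogen or without either array lacking nitrogen (limma, smallest adjusted p from 0.0639 to 0.111), nor in the series matrix (0.236) or without the variance trend (0.104). Without replicate 2 of Varadan Os06g0115300 alone of them passed (2.34). Without the doubted replicate 1 of Varadan all 3 passed. Pi21 (2.12) and Os05g0382200 (-2.10) joined them there. Over all 6 arrays Pi21 was 2.50 ± 0.45 log2 higher in Varadan and did not pass (limma, adjusted p = 0.0522). It passed without replicate 2 of Varadan (3.06 ± 0.24, limma, adjusted p = 0.007), as did Os01g0720500 (2.69 ± 0.18, limma, adjusted p = 0.005). Both also passed on all 6 arrays with no filter on level (limma, adjusted p = 0.036 and 0.0455). The other probe sets of Pi21 differed by 0.73 ± 0.33 and 1.73 ± 0.36 and did not pass (limma, adjusted p = 0.507 and 0.0875).

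**Figure D5:**
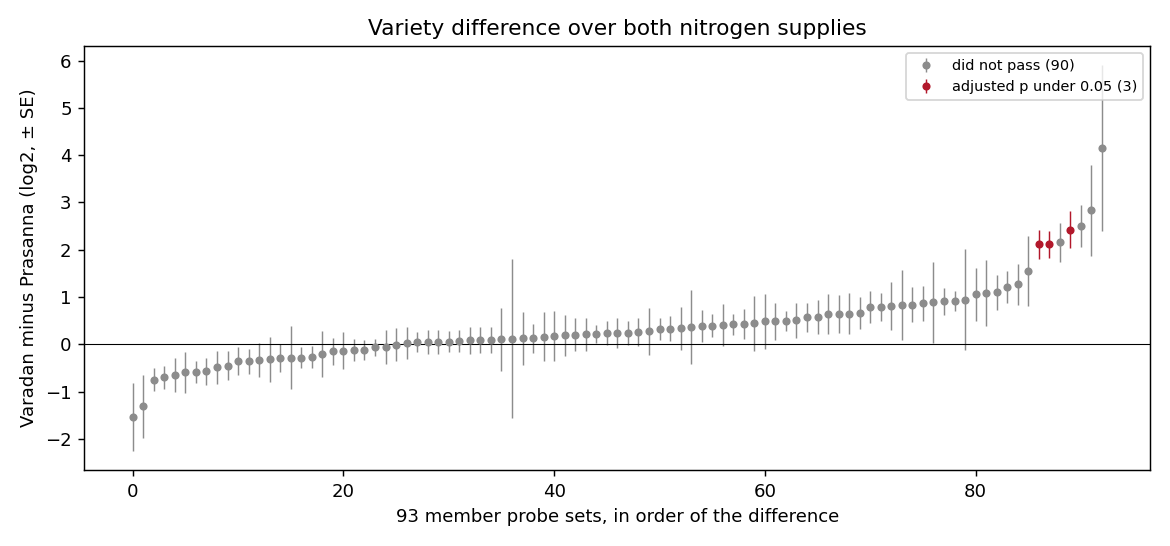
Varadan minus Prasanna over both nitrogen supplies in log2 (vertical axis; points are limma estimates, bars 1 SE) for the 93 member probe sets in order of size (horizontal axis). The 3 red points passed at an adjusted p of 0.05, at differences of 2.12, 2.12 and 2.42; 78 of the 93 lie within 1 log2 of 0.

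Among the members with the widest differences with nitrogen, none passed. Os12g0555100 read 5.79 ± 2.11 log2 higher in Varadan (limma, adjusted p = 0.54), or at least 5.17 in this probe set once the dim reading is raised to the 40th percentile. Its second probe set, with no dim reading, differed by 4.66 ± 1.56 (limma, adjusted p = 0.483). Os01g0910800 read 1.45 higher, with its Prasanna readings, both dim, raised and those of Varadan as measured. Its reading on replicate 2 of Varadan (4.95) was also just under the 40th percentile (4.96), so 1.45 is no strict bound. On the other side stood Os06g0648200 (-1.44 or lower), Os05g0382200 (-1.12 or lower), Os03g0341000 (-0.93), OsSTLP3 (-0.88) and Os01g0720400 (-0.88). A brighter probe set of Os06g0648200, with no dim reading, differed by only -0.50 ± 0.65 (limma, adjusted p = 0.884). Apart from Pi21 and OsNAC5, the named members differed by less than 1 log2. OsSAP1 read -0.04 ± 0.62, CML16 -0.03 ± 0.48, OsTIFY11c -0.06 ± 0.34 and ILL6 -0.14 ± 0.36. Of all 93 members, 74 differed by less than 1 log2, with a median SE of 0.44.

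Members lay on all 12 chromosomes. Of 80 genes placed in the reference table's gene order (assembly ASM3414082v1), 18 were on chromosome 1 (22.5%, against 14.8% of the 21543 array genes placed) and 10 on chromosome 3 (12.5% against 13.1%). Chromosomes 9 and 10 held 8 each (10.0% against 5.49% and 5.19%). Chromosome 2 held 5 (6.25% against 11.6%). Only 6 pairs of members had at most 10 protein-coding genes between them. Os01g0720400 and Os01g0720500 were direct neighbours, and Os01g0721000 followed with 2 genes between. The direct neighbours had unlike levels. Os01g0720400 gave 10.96, 9.51 and 8.95 for Prasanna and 10.78, 8.93 and 7.78 for Varadan. Os01g0720500 read 10.09, 8.92 and 8.98, then 12.83, 11.60 and 10.03. Os06g0683400 (14.34, 12.74 and 10.82, then 14.14, 13.12 and 10.94) and Os06g0683800 (8.48, 6.59 and 4.39, then 9.42, 8.41 and 6.32) had 1 gene between them. The remaining pairs, with 2 or 3 genes between, were Os01g0865400 with Os01g0866000, Os04g0638100 with Os04g0639200, and Os09g0444900 with Os09g0445600.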

How the data were processed

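Biotin-labelled root RNA was read on 6 Affymetrix rice arrays. The deposited log2 values are MAS5 signals per probe set, per the submitters' processing notes; no MAS5 version or detection call was at hand. The deposited series matrix holds the same values as linear intensity, matched to the log2 table to within 1e-06, with 2 Varadan columns exchanged. Every array had a mean of 500.0 on the linear scale after trimming 2% at each end, which hides any change common to most genes. Values were used as deposited, and MAS5 leaves low signals noisy.

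Of 57381 probe sets, 187 controls were left out. Limma 3.58.1 in R 4.3.3 (variance trend on level, two-sided, Benjamini-Hochberg at 0.05) was fitted across all 34316 probe sets with a mean at or above the 40th percentile, and was tested on simulated data. The variety difference with nitrogen was taken from a group-means model of all 6 arrays, and that over both supplies from an additive one. Each lone array is assumed to vary like the others, and errors are model SEs. The number of arrays limits the precision.

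All 93 members were tested. The members, lists and tests were chosen with earlier results of these data known. A rule set in advance named members with a gene name in the reference table, the extremes of the variety difference and those next to the limits; families by name, and loci said to be picked later, were added. Product descriptions, on which functional groups and exclusions were to rest, were not among the sources, so synonyms were used (81 of 89 genes matched an entry by gene ID). No sequences were used.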

Additional observations from a re-analysis of the deposited data

How the results depend on the processing

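Membership changed wholly with the table: 45 probe sets met the rule in the series matrix, none of them shared. The margin gave 224 at 0.8 and 14 at 1.5. The number was 122 after quantile normalization, and 133 and 65 at levels of 7 and 9. In 65 genes every tested probe set met the margin. Only 27 of the 89 genes had a further probe set, so for most genes this was settled in advance. The variety difference with nitrogen had 243 passing probe sets, 50 without the variance trend and 155 in the series matrix; with 1 array left out there were 0 to 697 (0 without either Prasanna replicate, where limma gave 2102 and 2352 at an unadjusted p under 0.05; 697 without replicate 2 of Varadan). Over both supplies 601 passed, 176 without the trend, and 242 to 826 with 1 array left out. Where the trend was dropped the members called fell from 3 to 0. The cause was not tested. With no filter 5 members were called. Filters, robust variance and quantile normalization kept the counts over all probe sets within 1.5-fold. Of 255 values for single members under the alternatives, 232 kept their side of the threshold, 20 lost a call, 3 gained one and 0 turned sign with a call. All 20 losses fell on the 3 members called over both supplies, which had 12 alternatives each. Most of the 255 values had no call to lose. Some of those changed sign without a call, such as the difference of SGR with nitrogen (-1.76 to 1.11). No paired analysis was possible because the labels give only the number 2 of a replicate, so the groups share fewer than 2 numbers. Dim readings and 2 or 3 residual degrees of freedom limit what could be detected.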
